A study of Mus musculus with 24 samples.

Results

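RNA from MLLT10 knockout cells was compared with RNA from cells in which MLLT1, also called ENL, was targeted. The cells were a mouse acute myeloid leukaemia line that carries the MLL-AF9 fusion oncogene and expresses Cas9. The comparison took 12 of the 24 libraries of the series, chosen by the target that their column names give, 6 for MLLT10 and 6 for MLLT1. Each target had 2 guide RNAs with 3 libraries each, so the groups were MLLT10 guide 1, MLLT10 guide 2, MLLT1 guide 1 and MLLT1 guide 2. Another 3 libraries with a non-targeting guide (NT) gave the background level of each gene. They entered the shared estimate of spread but not the difference itself. All groups, NT included, shared the fusion, Cas9 and the treatment: lentivirus at an MOI of 0.3, 2 ug/ml puromycin for 72 hours from 48 hours after transduction, and RNA on day 9. The sources used here name neither clones nor the guides' target sites, and do not say how much protein was lost.

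DOT1L is the methyltransferase that places methyl groups on lysine 79 of histone H3, a mark of transcribed genes. MLLT10 (AF10) binds DOT1L directly and is known to promote the higher methylation states of that lysine. MLLT1 (ENL) carries a YEATS domain that reads acetylated histones, and it is also a subunit of the super elongation complex, which helps RNA polymerase II out of pausing. In MLL-rearranged leukaemia both proteins are known to sustain genes such as those of the Hoxa cluster, and the cells are blocked at an early myeloid stage. Neutrophil precursors fill their granules in a set order, first with primary granule proteases and myeloperoxidase, then with specific and gelatinase granule proteins, and they make the S100 proteins late.

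Totals ranged from 2499684 to 7078139 counts in the MLLT10 libraries, from 3045434 to 7415397 in the MLLT1 libraries and from 2403044 to 3127008 in the NT libraries. Levels are given as CPM, a gene's counts per 1000000 counts of its library after TMM scaling, and they do not correct for gene length. Differences are log2 fold changes, MLLT10 minus MLLT1, with the standard error (SE) after ±. Genes were tested by edgeR's quasi-likelihood test, adjusted by Benjamini-Hochberg over all genes tested, and a gene was called at an adjusted p under 0.05. "Higher" and "lower" describe the MLLT10 knockout relative to the MLLT1 libraries. No label ties the replicates to separate cultures. The p-values then reflect only how far these samples lie apart, and that spread may be technical.

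The targeted mRNAs were examined first. Mllt10 (ENSMUSG00000026743, chromosome 2, 18055237 to 18212388, mm10) was at 9.06, 7.98 and 9.396 CPM for MLLT10 guide 1 and 10.6, 11.1 and 12.1 CPM for MLLT10 guide 2, against 12.8, 21.1 and 24.6 CPM for MLLT1 guide 1 and 14.4, 17.8 and 20.3 CPM for MLLT1 guide 2. The NT libraries held 16.9, 14.7 and 19.1 CPM, and each MLLT10 library was below each of the other libraries named here. The difference came to -0.90 ± 0.17 on the log2 scale (edgeR adjusted p = 0.00276). Mllt10 overlaps Dnajc1 on the opposite strand, and the strand setting of the counting is not given, so their shared reads cannot be told apart. Mllt1 (ENSMUSG00000024212, chromosome 17, 56892611 to 56935415) was at 47.3, 33.8 and 29.5 CPM for MLLT10 guide 1 and 43.7, 30.6 and 33.2 CPM for MLLT10 guide 2, against 69.3, 46.1 and 36.7 CPM for MLLT1 guide 1 and 43.3, 48.5 and 34.95 CPM for MLLT1 guide 2, and at 41.2, 27.8 and 21.8 CPM in NT. Mllt1 mRNA was thus not lower in the libraries that target it: its difference came to -0.34 ± 0.17 (edgeR adjusted p = 0.394), with the higher mean in those libraries. The mRNA therefore gives no check of the labels of these 6 libraries, and they are called MLLT1-labelled libraries below. Dot1l itself had a log2 fold change of -0.03 ± 0.09, Mllt6 of 0.13 ± 0.15 and Mllt3 of 0.08 ± 0.21, none of them called.

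The MLLT10 knockout held more mRNA of 4 primary granule enzymes and of a few monocyte and surface genes, and less of several specific granule and S100 genes, than the MLLT1-labelled libraries. Of 10578 genes tested, 283 were called (2.68%), 158 higher (1.49%) and 125 lower (1.18%). By at least 2-fold, 64 were higher and 42 lower. The median log2 fold change over all genes tested was 0.00. The 6 MLLT10 and the 6 MLLT1-labelled libraries did not overlap in CPM for 192 of the called genes and for 289 of all genes tested (2.73%). The count of lower genes was 81 without MLLT10 guide 1 replicate 2, and the DESeq2 test called 223 higher and 189 lower. Called genes lay across most of the range of levels, as the plot of all genes against their mean level shows. In bulk RNA, fewer cells of a type and less RNA per cell cannot be told apart.

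**Figure D1:**
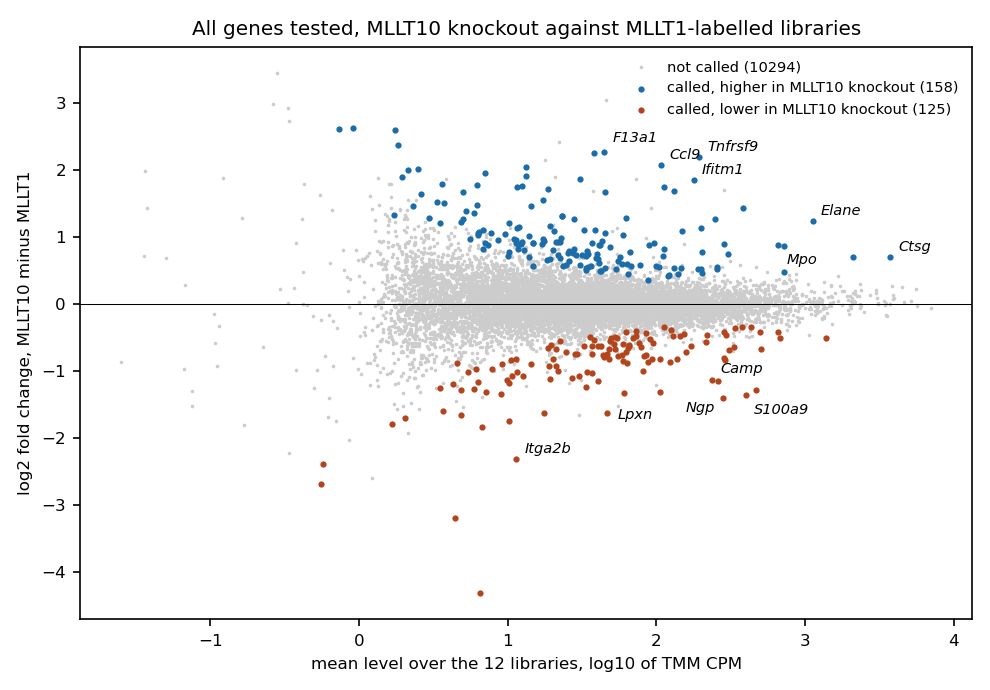
Log2 fold change of each gene tested, MLLT10 minus MLLT1-labelled libraries, against its mean level over the 12 libraries (log10 of TMM CPM). Blue points are the 158 genes called higher and red points the 125 called lower in the MLLT10 knockout, grey points were not called, and 1 gene at 0 in all 12 libraries is not drawn. Elane, Mpo and Ctsg lie above 0 and Ngp, Camp and S100a9 below it.

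Neutrophil elastase, proteinase 3, cathepsin G and myeloperoxidase, enzymes that primary granules store to kill microbes, were all higher in the MLLT10 knockout. Elane, neutrophil elastase (ENSMUSG00000020125, chromosome 10, 79886247 to 79888215), was at 1338, 2174 and 1676 CPM for MLLT10 guide 1 and 1543, 1488 and 1244 CPM for MLLT10 guide 2, against 701, 689.7 and 673 CPM for MLLT1 guide 1 and 539, 808 and 606 CPM for MLLT1 guide 2. NT held 891, 1138 and 801 CPM, below every MLLT10 library, and its lowest library was level with the highest MLLT1-labelled one. The 6 MLLT10 libraries were each above the 6 MLLT1-labelled ones, by 1.23 ± 0.15 (edgeR adjusted p = 1.64e-05). Its neighbour Prtn3, proteinase 3 (ENSMUSG00000057729, chromosome 10, 79874476 to 79883174), was at 804, 1282 and 1095 CPM for MLLT10 guide 1 and 805, 851 and 721 CPM for MLLT10 guide 2, against 445, 448 and 526 CPM for MLLT1 guide 1 and 494, 488 and 644 CPM for MLLT1 guide 2. The groups did not overlap, they differed by 0.86 ± 0.12 (edgeR adjusted p = 0.000151), and NT, at 699, 839 and 729 CPM, overlapped the lower MLLT10 libraries. Part of Prtn3 lies opposite Plppr3, whose reads cannot be separated from it.

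Mpo, myeloperoxidase, which makes hypochlorous acid (ENSMUSG00000009350, chromosome 11, 87793581 to 87804413), was at 975, 876 and 810.3 CPM for MLLT10 guide 1 and 927, 865 and 668 CPM for MLLT10 guide 2, against 473, 480.4 and 422 CPM for MLLT1 guide 1 and 359, 613 and 442 CPM for MLLT1 guide 2. The groups did not overlap (log2 fold change 0.87 ± 0.13, edgeR adjusted p = 0.000181), and NT, at 384, 369 and 271 CPM, was at or below the lower MLLT1-labelled libraries. Ctsg, cathepsin G (ENSMUSG00000040314, chromosome 14, 56099881 to 56102574), was at 5294, 4518 and 4534 CPM for MLLT10 guide 1 and 5513, 4099 and 3644 CPM for MLLT10 guide 2, against 3053, 2719.9 and 2609 CPM for MLLT1 guide 1 and 3156, 2428 and 3082 CPM for MLLT1 guide 2. Here too the groups were apart (log2 fold change 0.69 ± 0.12, edgeR adjusted p = 0.00133), but NT, at 4845, 5054 and 5277 CPM, stood with the MLLT10 knockout. Of the 11 tested primary granule genes, 4 were higher and 2 lower, with a median of 0.20. The 4 higher calls held in all 12 fits that left out a library, and in 10 of those fits 1 member was lower in place of 2. The 2 lower ones are no enzymes: Serpinb1a, an inhibitor of these proteases (-0.51 ± 0.09, edgeR adjusted p = 0.00185), and Cd63, a membrane protein of granules and lysosomes (-0.43 ± 0.11, edgeR adjusted p = 0.0378). Ms4a3 (0.34), Nkg7 (0.20), Srgn (0.06), Prss57 (-0.06) and Ctsc (-0.11), which activates serine proteases of granules, were not called.

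Ngp, Camp, S100a8 and S100a9, genes of later neutrophil stages, were lower in the MLLT10 knockout. Ngp, a cathelicidin-related protein of specific granules (ENSMUSG00000032484, chromosome 9, 110419747 to 110423012), was at 110.1, 200.5 and 174 CPM for MLLT10 guide 1 and 131, 132 and 181 CPM for MLLT10 guide 2, against 428, 369 and 404 CPM for MLLT1 guide 1 and 375, 525 and 354 CPM for MLLT1 guide 2. NT held 96.9, 96.3 and 81.3 CPM, the lowest of all. The difference came to -1.41 ± 0.18 on the log2 scale (edgeR adjusted p = 4.19e-05), with no overlap between the groups. Camp, the antimicrobial peptide cathelicidin (ENSMUSG00000038357, chromosome 9, 109847379 to 109849617), was at 169.7, 123 and 131 CPM for MLLT10 guide 1 and 187, 125 and 151 CPM for MLLT10 guide 2, against 199, 392 and 379 CPM for MLLT1 guide 1 and 294, 326 and 355 CPM for MLLT1 guide 2. It was 72.1, 48.2 and 67.7 CPM in NT, and the difference between the groups was -1.13 ± 0.18 (edgeR adjusted p = 0.000444). The lowest MLLT1-labelled library for Camp, guide 1 replicate 1, still lay above the highest MLLT10 library.

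S100a8 and S100a9 encode the subunits of calprotectin, which binds calcium and zinc. S100a8 (ENSMUSG00000056054, chromosome 3, 90668978 to 90670035) was at 364, 216 and 229 CPM for MLLT10 guide 1 and 369.97, 235 and 223 CPM for MLLT10 guide 2, against 525, 756 and 685 CPM for MLLT1 guide 1 and 645, 724 and 678 CPM for MLLT1 guide 2. S100a9 (ENSMUSG00000056071, chromosome 3, 90692632 to 90695721) was at 266, 188 and 192 CPM for MLLT10 guide 1 and 277, 195 and 217 CPM for MLLT10 guide 2, against 520.2, 542 and 627 CPM for MLLT1 guide 1 and 548, 641 and 573 CPM for MLLT1 guide 2. NT held 97.7, 53.2 and 61.4 CPM of S100a8 and 89.4, 54.1 and 47.8 CPM of S100a9, below all 12 libraries. Between the groups, S100a8 differed by -1.29 ± 0.22 (edgeR adjusted p = 0.000941) and S100a9 by -1.37 ± 0.18 (edgeR adjusted p = 6.32e-05), without overlap.

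**Figure D2:**
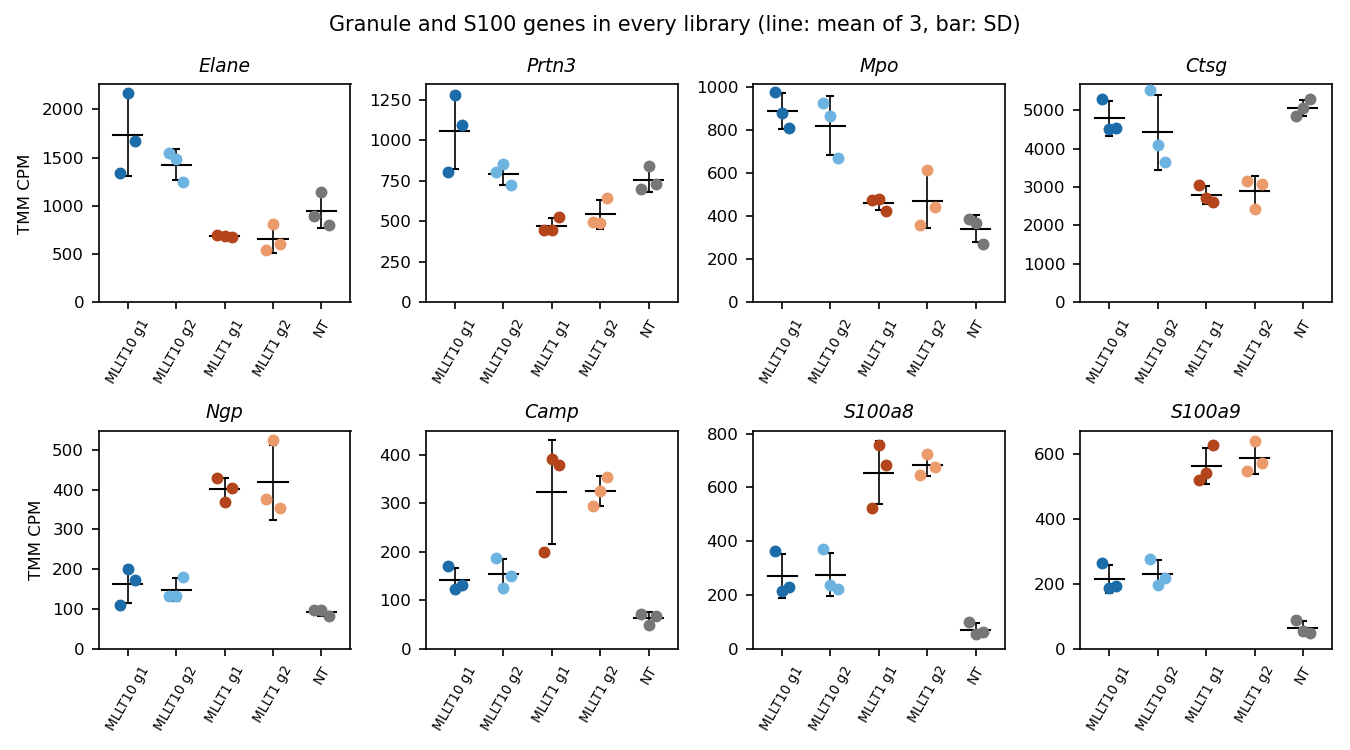
TMM CPM in every library of the 4 guide groups and NT (points), with the mean of each group of 3 (line) and its SD (bar), for 4 primary granule genes (top) and 4 specific granule or S100 genes (bottom). The MLLT10 libraries are above the MLLT1-labelled ones in the top row and below them in the bottom row.

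Among 20 tested genes of specific and gelatinase granules, 4 were lower and 1 higher, with a median of -0.51. The count of lower members was 7 without MLLT10 guide 2 replicate 1 and 7 with no filter on low counts, and otherwise 3 to 6. Besides Ngp and Camp, the lower ones were Itgb2l, an integrin subunit of neutrophils (-1.35 ± 0.24, edgeR adjusted p = 0.00145), and Cd177, a neutrophil surface protein (-1.02 ± 0.24, edgeR adjusted p = 0.0174). Mmp8, neutrophil collagenase, had the lowest, median and highest CPM of 4.07, 5.69 and 6.85 in the MLLT10 knockout and of 0.673, 1.89 and 3.97 in the MLLT1-labelled libraries, and it was higher by 1.51 ± 0.29 (edgeR adjusted p = 0.00356). It was the exception among the called members, at a level of a few CPM. Ltf, lactoferrin (-1.05), Retnlg (-0.99), Lcn2 (-0.66) and Chil3 (1.17) were not called.

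The list of S100 and late neutrophil genes was split, with 3 of 20 tested members lower, 2 higher and a median of 0.16. The third lower one was Stfa2, a stefin that inhibits cathepsins (-0.83 ± 0.19, edgeR adjusted p = 0.0152), one of a family of near-identical genes whose reads may be split between copies. The higher ones were Trem3, an activating receptor of myeloid cells (1.08 ± 0.20, edgeR adjusted p = 0.00204), and S100a10, the partner of annexin A2 (0.56 ± 0.13, edgeR adjusted p = 0.013; 0.0511 without MLLT1 guide 2 replicate 1). No subunit gene of the phagocyte oxidase was called among 6 tested. Their median was -0.29, and Ncf1 had -0.47 ± 0.16 (edgeR adjusted p = 0.144).

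The promoters of the 4 higher and 4 lower granule and S100 genes above are shown because each set moved together. The sequences are those of RefSeq on GRCm38.p6, 250 bases before the start site to 50 bases after the first, read 5′ to 3′ on the gene's strand: Elane chr10:79886062-79886361 (+ strand), Prtn3 chr10:79879417-79879716 (+ strand), Mpo chr11:87793534-87793833 (+ strand), Ctsg chr14:56102525-56102824 (- strand), Ngp chr9:110419558-110419857 (+ strand), Camp chr9:109849407-109849706 (- strand), S100a8 chr3:90668821-90669120 (+ strand) and S100a9 chr3:90695672-90695971 (- strand). Capitals mark matches, on either strand, to letters that PU.1 (GAGGAAG), C/EBP (TTNNGCAA), MYB (AACNGNC) and RUNX (TGTGGT) factors are known to favour.
Elane: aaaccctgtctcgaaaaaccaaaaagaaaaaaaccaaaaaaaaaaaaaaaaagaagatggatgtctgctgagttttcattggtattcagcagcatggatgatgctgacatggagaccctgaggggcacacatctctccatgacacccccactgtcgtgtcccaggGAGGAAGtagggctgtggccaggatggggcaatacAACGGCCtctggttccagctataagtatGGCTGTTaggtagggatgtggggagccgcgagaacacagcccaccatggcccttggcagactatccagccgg
Prtn3: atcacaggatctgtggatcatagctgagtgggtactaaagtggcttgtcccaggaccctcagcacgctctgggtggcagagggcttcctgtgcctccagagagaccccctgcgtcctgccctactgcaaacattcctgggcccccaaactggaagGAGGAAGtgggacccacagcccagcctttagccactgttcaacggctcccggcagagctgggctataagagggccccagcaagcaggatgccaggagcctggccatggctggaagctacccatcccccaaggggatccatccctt
Mpo: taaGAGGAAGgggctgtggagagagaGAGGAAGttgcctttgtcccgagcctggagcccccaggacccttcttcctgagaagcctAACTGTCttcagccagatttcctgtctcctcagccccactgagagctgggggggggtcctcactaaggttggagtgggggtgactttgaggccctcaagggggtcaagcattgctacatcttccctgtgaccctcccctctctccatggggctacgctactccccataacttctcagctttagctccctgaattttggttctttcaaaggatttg
Ctsg: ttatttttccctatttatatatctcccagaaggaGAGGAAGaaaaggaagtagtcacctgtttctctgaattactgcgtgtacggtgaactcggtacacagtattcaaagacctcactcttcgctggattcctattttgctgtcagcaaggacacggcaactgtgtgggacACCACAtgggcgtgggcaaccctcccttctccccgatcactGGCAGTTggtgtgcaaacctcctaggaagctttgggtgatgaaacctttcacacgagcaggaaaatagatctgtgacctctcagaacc
Ngp: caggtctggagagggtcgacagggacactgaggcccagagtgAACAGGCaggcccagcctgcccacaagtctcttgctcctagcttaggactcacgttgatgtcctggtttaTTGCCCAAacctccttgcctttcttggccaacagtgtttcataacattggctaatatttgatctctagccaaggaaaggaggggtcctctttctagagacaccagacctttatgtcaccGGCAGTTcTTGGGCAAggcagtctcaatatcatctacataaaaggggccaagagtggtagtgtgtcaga
Camp: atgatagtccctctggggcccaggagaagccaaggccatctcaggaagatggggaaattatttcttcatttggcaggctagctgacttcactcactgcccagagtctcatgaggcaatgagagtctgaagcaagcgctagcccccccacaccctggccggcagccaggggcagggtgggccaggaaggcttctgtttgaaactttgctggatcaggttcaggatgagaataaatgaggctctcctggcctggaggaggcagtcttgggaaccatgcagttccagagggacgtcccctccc
S100a8: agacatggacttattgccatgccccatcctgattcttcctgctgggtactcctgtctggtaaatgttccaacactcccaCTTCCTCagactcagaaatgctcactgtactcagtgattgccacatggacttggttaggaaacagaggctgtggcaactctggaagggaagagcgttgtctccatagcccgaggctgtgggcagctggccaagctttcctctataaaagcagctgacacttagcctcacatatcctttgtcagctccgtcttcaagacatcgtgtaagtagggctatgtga
S100a9: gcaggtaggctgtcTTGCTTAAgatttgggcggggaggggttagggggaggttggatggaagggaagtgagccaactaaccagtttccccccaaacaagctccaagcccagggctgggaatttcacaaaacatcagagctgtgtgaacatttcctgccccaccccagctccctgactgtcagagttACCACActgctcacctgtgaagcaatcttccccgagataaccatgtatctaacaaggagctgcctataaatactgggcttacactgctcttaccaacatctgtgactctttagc

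The PU.1 letters GAGGAAG stood on the gene's strand in all 4 primary granule promoters, with the first base at -85 in Elane, -95 in Prtn3, -247 and -224 in Mpo and -216 in Ctsg, counted from the start site. In S100a8 they stood on the opposite strand at -171, and Ngp, Camp and S100a9 had no match. The C/EBP letters had 2 matches in Ngp and 1 in S100a9. The MYB letters had 2 matches in Elane, 1 in Mpo, 1 in Ctsg and 2 in Ngp, and the RUNX letters had 1 in Ctsg and 1 in S100a9. Of all 32851 RefSeq promoters of this length, 13.63% held the PU.1 letters, 10.8% the C/EBP letters, 32.84% the MYB letters and 16.76% the RUNX letters. A promoter was found for 216 of the 283 called genes. The PU.1 letters stood in 17.65% of the 119 higher ones, 14.43% of the 97 lower ones and 13.74% of the 8070 tested genes with a promoter. The C/EBP letters stood in 9.24% of the higher, 11.34% of the lower and 8.265% of the tested ones. The RUNX letters stood in 15.13% of the higher, 19.59% of the lower and 12.6% of the tested ones, and the MYB letters in 34.45% of the higher, 31.96% of the lower and 33.63% of the tested ones. A match describes letters only, and no binding was measured.

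Of 18 tested monocyte and macrophage genes, 4 were higher and none lower, against 1.49% higher and 1.18% lower over all genes tested. In other fits 3 to 5 members were higher and 0 to 1 lower. The DESeq2 test and the fit with no filter on low counts each called 1 member lower. F13a1, the coagulation factor XIII subunit that monocytes make (ENSMUSG00000039109, chromosome 13, 36867178 to 37050244), was at 42.6, 83.7 and 79.7 CPM for MLLT10 guide 1 and 57.9, 84.7 and 91.01 CPM for MLLT10 guide 2, against 11.8, 10.3 and 21.6 CPM for MLLT1 guide 1 and 15.05, 11.2 and 22.6 CPM for MLLT1 guide 2. NT held 28.03, 25.6 and 38.1 CPM, between the groups, which did not overlap. This was the largest rise among the genes named by rule, 2.27 ± 0.21 (edgeR adjusted p = 6.16e-07). Ccl9, a chemokine of myeloid cells (ENSMUSG00000019122, chromosome 11, 83572919 to 83578636), was at 177, 177 and 171 CPM for MLLT10 guide 1 and 167, 186 and 159.8 CPM for MLLT10 guide 2, against 43.7, 41.7 and 34.8 CPM for MLLT1 guide 1 and 37.3, 46.5 and 43.1 CPM for MLLT1 guide 2. Its libraries lay close together within each group and far apart between them, with NT between at 71.3, 97.3 and 80.1 CPM, and they differed by 2.07 ± 0.13 on the log2 scale (edgeR adjusted p = 1.52e-09).

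Ccr2, the receptor that draws monocytes out of the marrow (ENSMUSG00000049103, chromosome 9, 124101950 to 124113557), was at 19.3, 33.02 and 44.4 CPM for MLLT10 guide 1 and 18.4, 30.8 and 27.7 CPM for MLLT10 guide 2, against 4.71, 10.7 and 7.08 CPM for MLLT1 guide 1 and 7.22, 8.56 and 13.1 CPM for MLLT1 guide 2. It differed by 1.72 ± 0.27 (edgeR adjusted p = 0.000447) without overlap, and NT, at 14.8, 25.6 and 26.4 CPM, stood with the MLLT10 knockout. The fourth, Cd68, an endosomal protein of macrophages, had the lowest, median and highest CPM of 11.8, 14.3 and 27.1 in the MLLT10 knockout and of 5.95, 9.67 and 12.01 in the MLLT1-labelled libraries. The groups overlapped, and its call (0.80 ± 0.22, edgeR adjusted p = 0.0461) was lost in 10 of 12 fits that left out a library. The list's median was -0.02, and some members had values below 0 without being called: Fcgr1 (-0.95), Itgam (-0.80), Ms4a6d (-0.71) and Csf1r (-0.48). Adgre1, the F4/80 antigen, had 0.04. Fcgr1 was at 3.73 ± 1.84 CPM in the MLLT10 knockout and 7.55 ± 1.81 CPM in the MLLT1-labelled libraries (SD, n = 6 each).

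Ifitm1, an interferon-induced membrane protein (ENSMUSG00000025491, chromosome 7, 140967221 to 140969825), was at 309, 316 and 274 CPM for MLLT10 guide 1 and 316, 238 and 217 CPM for MLLT10 guide 2, against 97.9, 74.1 and 64.4 CPM for MLLT1 guide 1 and 86.7, 74.9 and 67.4 CPM for MLLT1 guide 2. The groups did not overlap (1.84 ± 0.12, edgeR adjusted p = 1.52e-09), and NT, at 190.4, 239 and 245 CPM, stood far above the MLLT1-labelled libraries. Its neighbour Ifitm3 was at 441, 253 and 243 CPM for MLLT10 guide 1 and 442, 331 and 386 CPM for MLLT10 guide 2, against 166, 154 and 112 CPM for MLLT1 guide 1 and 107, 223 and 101 CPM for MLLT1 guide 2. That was 1.27 ± 0.23 on the log2 scale (edgeR adjusted p = 0.00173) without overlap, but NT, at 151, 103 and 69.6 CPM, was here near the MLLT1-labelled libraries. Ifitm1 is not in the list of interferon-stimulated genes. Of that list's 17 tested members, 2 were higher and none lower (median 0.19): Ifitm3 and Isg20, an RNA exonuclease (0.76 ± 0.19, edgeR adjusted p = 0.0296, lost in 9 of 12 fits that left out a library). Irf7 (0.67), a factor that drives the response, and Ifih1 (-0.56), a sensor of double-stranded RNA, were not called.

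Tnfrsf9, the costimulatory receptor 4-1BB (ENSMUSG00000028965, chromosome 4, 150914562 to 150946102), was at 139.98, 509 and 464 CPM for MLLT10 guide 1 and 281, 246 and 273 CPM for MLLT10 guide 2, against 134, 31.3 and 32.96 CPM for MLLT1 guide 1 and 92.4, 90.1 and 36.4 CPM for MLLT1 guide 2. All 12 libraries were below NT, at 988, 1652 and 927 CPM, and the MLLT10 ones lay above the MLLT1-labelled ones by 2.19 ± 0.39 (edgeR adjusted p = 0.0014). Its libraries were spread widely within each group, and MLLT10 guide 1 replicate 1 stood just above the highest MLLT1-labelled library. Tnfrsf9 alone was called among the 20 tested members of the cytokine receptor list, which does not hold Il2ra, described below. Flt3, a receptor of progenitors, had 0.77 ± 0.23 without overlap between the groups (edgeR adjusted p = 0.0706), and it was called in the fit of the 12 libraries alone (adjusted p = 0.0468) and by the DESeq2 test (adjusted p = 0.0241). The list of chemokines and cytokines, which does not hold Tslp, described below, had 9 tested members. Among them, Ccl9 was higher and Il1rn, the interleukin 1 receptor antagonist, lower (-0.89 ± 0.22, edgeR adjusted p = 0.0262, lost in 6 of 12 fits that left out a library).

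The other large rises, relative to the MLLT1-labelled libraries, were also without overlap between the groups. Deptor, an inhibitor of mTOR, had the lowest, median and highest CPM of 14.5, 19.7 and 30.05 in the MLLT10 knockout and of 4.17, 4.88 and 7.68 in the MLLT1-labelled libraries. Its difference came to 2.04 ± 0.24 (edgeR adjusted p = 1.64e-05), and NT averaged 15.4 ± 5.84 CPM (SD, n = 3). Chpf, which polymerises chondroitin, differed by 1.95 (11.2 ± 2.96 CPM in the MLLT10 knockout, 2.84 ± 1.13 CPM in the MLLT1-labelled libraries) (SD, n = 6 each). Tslp, an epithelial cytokine, differed by 1.91 (20.96 ± 3.61 CPM in the MLLT10 knockout, 5.503 ± 2.21 CPM in the MLLT1-labelled libraries), and Trf, transferrin, by 1.75 (17.9 ± 4.75 CPM in the MLLT10 knockout, 5.16 ± 1.04 CPM in the MLLT1-labelled libraries). None of these genes overlapped between the groups. Il2ra, a chain of the interleukin 2 receptor, differed by 1.78 (9.79 ± 3.34 CPM in the MLLT10 knockout and 2.72 ± 1.62 CPM in the MLLT1-labelled libraries) and Ddx4, an RNA helicase known from germ cells, by 1.76 (19.5 ± 3.83 CPM in the MLLT10 knockout, 5.53 ± 2.16 CPM in the MLLT1-labelled libraries). Hbb-bt, an adult beta globin, differed by 1.87 (47.6 ± 15.7 CPM in the MLLT10 knockout and 13.3 ± 4.16 CPM in the MLLT1-labelled libraries). Beside it, the erythroid markers Alas2, Hba-a1 and Hbb-bs were under 1 CPM in all 12 libraries, and Hbb-bt and Hbb-bs are near-identical copies between which reads may be split. The largest edgeR adjusted p of these genes was 0.00124, that of Il2ra. Against NT, none of Chpf (0.06), Tslp (-0.24), Trf (0.45), Il2ra (-0.50), Ddx4 (-0.98) and Hbb-bt (-0.70) was called in the MLLT10 knockout. In the MLLT1-labelled libraries each was called lower than NT, at -1.89, -2.15, -1.30, -2.28, -2.74 and -2.57 in that order. The largest edgeR adjusted p there was 0.00613, that of Trf.

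**Figure D3:**
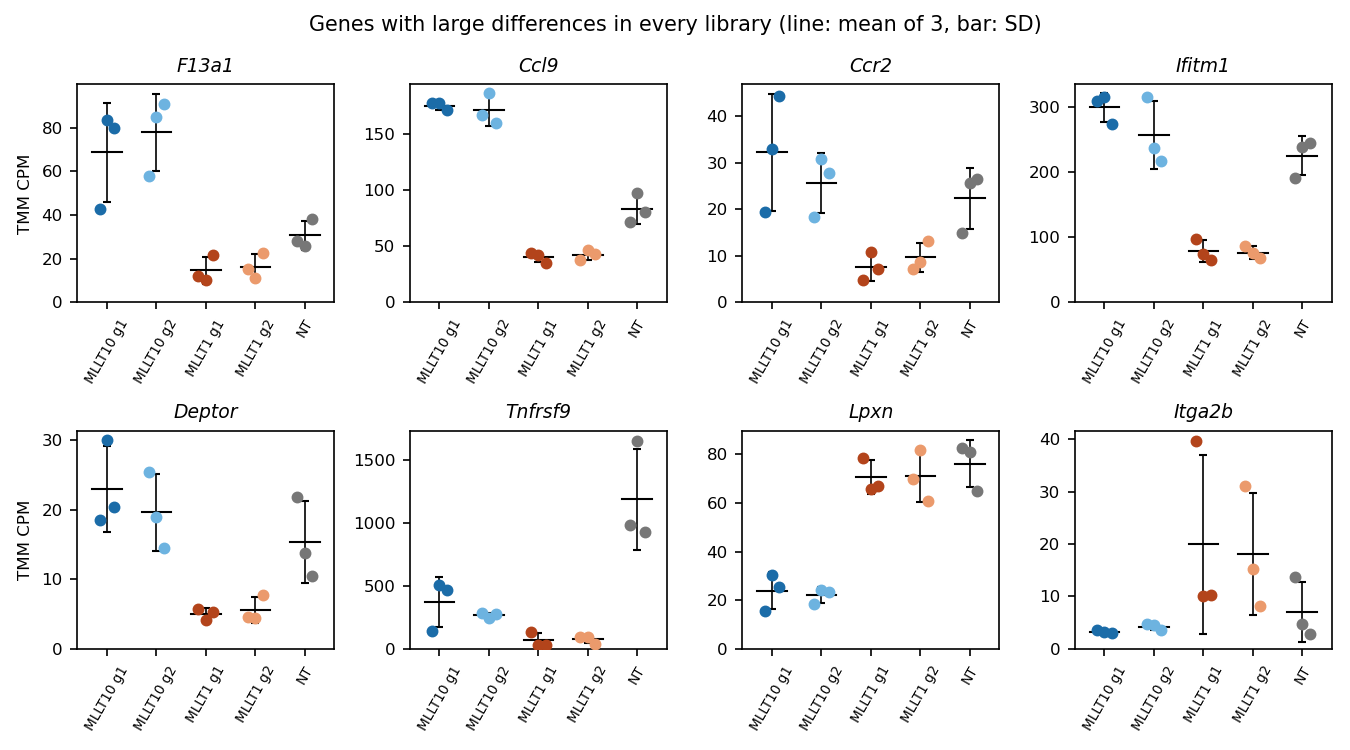
TMM CPM in every library of the 4 guide groups and NT (points), with the mean of each group of 3 (line) and its SD (bar), for 6 genes called higher and 2 genes called lower in the MLLT10 knockout. NT lies between the groups for F13a1 and Ccl9, with the MLLT1-labelled libraries for Lpxn, and above all 12 for Tnfrsf9.

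The largest fall among the genes named by rule was that of Itga2b, the integrin CD41 of megakaryocytes and early progenitors (ENSMUSG00000034664, chromosome 11, 102453297 to 102470122), at 3.62, 3.13 and 2.92 CPM for MLLT10 guide 1 and 4.67, 4.43 and 3.52 CPM for MLLT10 guide 2, against 39.7, 10.003 and 10.2 CPM for MLLT1 guide 1 and 31.002, 15.3 and 8.18 CPM for MLLT1 guide 2. The MLLT10 libraries were uniformly low and the MLLT1-labelled ones spread widely, highest in replicate 1 of each guide (-2.32 ± 0.44, edgeR adjusted p = 0.00271). NT held 13.6, 4.69 and 2.72 CPM. Lpxn, leupaxin, an adaptor of cell adhesion (ENSMUSG00000024696, chromosome 19, 12796193 to 12833807), was at 15.4, 30.5 and 25.6 CPM for MLLT10 guide 1 and 18.4, 24.3 and 23.4 CPM for MLLT10 guide 2, against 78.7, 65.9 and 67.2 CPM for MLLT1 guide 1 and 69.8, 82.03 and 60.98 CPM for MLLT1 guide 2. It was lower without overlap (log2 fold change -1.63 ± 0.17, edgeR adjusted p = 4.52e-06), and NT, at 82.8, 81.01 and 64.9 CPM, stood with the MLLT1-labelled libraries. These 2 were the only ones called among the 19 tested members of the integrin and adhesion list, which does not hold Itgb2l. Itgam, the CD11b chain, had -0.80 and was not called.

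Clec4a2, an inhibitory lectin receptor of myeloid cells, was at 4.98, 4.23 and 4.86 CPM for MLLT10 guide 1 and 4.53, 4.57 and 4.69 CPM for MLLT10 guide 2, against 17.2, 17.4 and 16.6 CPM for MLLT1 guide 1 and 16.9, 15.5 and 10.2 CPM for MLLT1 guide 2. Its MLLT10 libraries lay close together, and below every MLLT1-labelled one (log2 fold change -1.74 ± 0.25, edgeR adjusted p = 0.000166), while NT held 1.24, 2.502 and 0.778 CPM. Csgalnact1, which starts chondroitin chains, had the lowest, median and highest CPM of 6.79, 8.42 and 11.7 in the MLLT10 knockout and of 24.04, 26.02 and 29.6 in the MLLT1-labelled libraries. It differed by -1.64 ± 0.20 (edgeR adjusted p = 1.82e-05) without overlap, so that it and Chpf, both enzymes of chondroitin synthesis, differed in opposite directions. Neto2, an accessory subunit of glutamate receptors in the brain, had the lowest, median and highest CPM of 56.7, 60.6 and 67.9 in the MLLT10 knockout and of 113, 154 and 184 in the MLLT1-labelled libraries, a difference of -1.31 ± 0.16 (edgeR adjusted p = 2.49e-05). Ikzf2, the zinc finger factor Helios, had the lowest, median and highest CPM of 26.6, 29.2 and 56.4 in the MLLT10 knockout and of 45.7, 90.3 and 113 in the MLLT1-labelled libraries. Its groups overlapped, through MLLT10 guide 1 replicate 3 and MLLT1 guide 1 replicate 1, and it differed by -1.34 ± 0.24 (edgeR adjusted p = 0.00136). Ly6g5b (-1.84 ± 0.30) and Pilrb2, an activating receptor of the paired immunoglobulin-like family (-1.28 ± 0.29), averaged under 11 CPM in both groups.

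Of 28 tested targets of MLL fusions, none was higher and 3 were lower in the MLLT10 knockout, with a median of -0.24. That was 10.7% called, against 2.68% of all genes tested. In other fits 0 to 1 member was higher and 2 to 5 were lower. The list holds Flt3, its largest value (0.77), which was called higher in the fit of the 12 libraries alone and by the DESeq2 test. Lmo2, a bridging protein of blood progenitor transcription complexes (ENSMUSG00000032698, chromosome 2, 103957986 to 103981878), was at 188, 165 and 209.95 CPM for MLLT10 guide 1 and 188, 216 and 275 CPM for MLLT10 guide 2, against 215, 327 and 430.02 CPM for MLLT1 guide 1 and 379, 374 and 454 CPM for MLLT1 guide 2. The groups overlapped through MLLT1 guide 1 replicate 1, which lay among the MLLT10 libraries, and the difference was -0.81 ± 0.14 (edgeR adjusted p = 0.00102), with NT at 229, 186 and 264 CPM. Jmjd1c, a demethylase-family protein (ENSMUSG00000037876, chromosome 10, 67096125 to 67256326), was at 43.8, 42.4 and 44.4 CPM for MLLT10 guide 1 and 34.2, 39.1 and 51.2 CPM for MLLT10 guide 2, against 74.3, 68.8 and 73.3 CPM for MLLT1 guide 1 and 65.3, 102 and 75.6 CPM for MLLT1 guide 2. It was lower without overlap (log2 fold change -0.86 ± 0.14, edgeR adjusted p = 0.000608). It shares 821 bases with Reep3 on the other strand, which was also lower (-0.87 ± 0.10, edgeR adjusted p = 1.64e-05), and their shared reads cannot be told apart. Hoxa5, a homeobox factor, had the lowest, median and highest CPM of 32.4, 38.9 and 51.6 in the MLLT10 knockout and of 49.1, 58.4 and 70.3 in the MLLT1-labelled libraries, with -0.55 ± 0.13 (edgeR adjusted p = 0.0156). Its call was lost without MLLT10 guide 2 replicate 1 (adjusted p = 0.0509) and without MLLT1 guide 1 replicate 2 (adjusted p = 0.0544).

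No difference was called for the best known genes of the fusion programme. Hoxa9 was at 204 ± 30.2 CPM in the MLLT10 knockout and 229 ± 29.9 CPM in the MLLT1-labelled libraries (SD, n = 6 each), with a log2 fold change of -0.17 ± 0.12. Its cofactor Meis1 was at 89.98 ± 6.48 CPM in the MLLT10 knockout and 87.4 ± 9.67 CPM in the MLLT1-labelled libraries (0.04 ± 0.14). Myb (-0.23), Pbx3 (-0.34), Mef2c (-0.23), Cdk6 (-0.24) and Bcl2 (-0.30) were not called either. Of 6 tested Hoxa genes, Hoxa5 was called, and all 6 log2 fold changes were below 0 (median -0.28). Among 21 tested stem and progenitor genes, Itga2b and Lmo2 were lower and none higher, and without MLLT1 guide 1 replicate 1 the counts were 3 lower and 2 higher. Kit (-0.06) and Cd34 (-0.52) were not called.

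Most factors that drive myeloid differentiation were not called. Of 16 tested, Klf2, a factor of quiescent cells, was higher (0.97 ± 0.23, edgeR adjusted p = 0.0173). It averaged 7.44 CPM in the MLLT10 knockout and 3.72 CPM in the MLLT1-labelled libraries. Its call was lost in 3 of 12 fits that left out a library, with the highest edgeR adjusted p, 0.0671, without MLLT10 guide 1 replicate 2. Cebpe, the factor that drives specific granule genes, was lower, at 77.2, 65.1 and 55.7 CPM for MLLT10 guide 1 and 70.7, 54.7 and 42.96 CPM for MLLT10 guide 2, against 134, 83.9 and 78.2 CPM for MLLT1 guide 1 and 105, 95.3 and 76.1 CPM for MLLT1 guide 2. Its groups overlapped, and the call (-0.64 ± 0.17, edgeR adjusted p = 0.044) was lost in 7 of 12 fits that left out a library, with the highest adjusted p, 0.132, without MLLT1 guide 1 replicate 1. Cebpa (-0.17), Spi1, which encodes PU.1 (-0.34), Gfi1 (-0.02), Runx1 (0.01) and Irf8 (0.06) had no called difference.

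Single genes were called in several lists of metabolism and stress. The share called was 7.69% in the glycolysis and hypoxia list and in the ATF4 list, against 2.68% of all genes tested. With so few calls per list, these counts are no result about the lists. Slc2a3, a glucose transporter, had the lowest, median and highest CPM of 40.2, 71.5 and 77.96 in the MLLT10 knockout and of 26.7, 34.9 and 41.5 in the MLLT1-labelled libraries, with 0.85 ± 0.15 (edgeR adjusted p = 0.00147). With Ero1l, an oxidase of the endoplasmic reticulum (0.55 ± 0.12, edgeR adjusted p = 0.0123), it made up the 2 higher members of 26 tested glycolysis and hypoxia genes, none of which was lower (median 0.19). Of 26 tested ATF4 and amino acid response genes, 2 were higher: Stc2, a secreted glycoprotein (0.60 ± 0.12, edgeR adjusted p = 0.00407), and Nupr1, a stress cofactor (0.71 ± 0.19, edgeR adjusted p = 0.0478). Atf4 itself had -0.06. The metallothioneins Mt2 (1.44 ± 0.17, edgeR adjusted p = 1.82e-05) and Mt1 (0.69 ± 0.15, edgeR adjusted p = 0.0106), which bind zinc and were chosen after their values were seen, were also higher.

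In antigen presentation, H2-Ob, a chain of the non-classical class II molecule H2-O, had the lowest, median and highest CPM of 39.7, 52.5 and 65.6 in the MLLT10 knockout and of 21.4, 23.1 and 33.2 in the MLLT1-labelled libraries. It differed by 1.11 ± 0.20 (edgeR adjusted p = 0.00145) without overlap, and the other 7 tested class II genes and all 9 class I genes were not called. Among p53 target genes, Pmaip1, the BH3 protein Noxa, was higher (0.53 ± 0.13, edgeR adjusted p = 0.0232) and Xpc, a DNA damage sensor, lower (-0.35 ± 0.09, edgeR adjusted p = 0.0416), out of 19 tested. Cdkn1a had 0.16 and Mdm2 -0.28. The histone methyltransferases Ezh2, of Polycomb (-0.41 ± 0.11, edgeR adjusted p = 0.0324), and Suv39h2, of heterochromatin (-0.51 ± 0.13, edgeR adjusted p = 0.0324), were lower among 34 tested regulators of histone methylation. E2f2, a cell cycle factor, was lower (-0.75 ± 0.17, edgeR adjusted p = 0.0154), the sole call among 14 cyclins, CDKs and their inhibitors. The share called was 12.5% of class II genes, 10.5% of p53 targets, 5.88% of the histone methylation list and 7.14% of the cyclin list. Over all genes tested it was 2.68%, and such few calls per list are no result about the lists. Several of these calls were lost in fits that left out a library. Xpc lost its call in 11 of the 12 fits, Nupr1, Ezh2 and Suv39h2 in 9 each, Pmaip1 in 6 and E2f2 in 3. All of these but E2f2 also lost the call in the fit of the 12 libraries alone and with no filter on low counts.

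Housekeeping programmes held no called member: 36 tested DNA replication genes, 29 of mitosis, 30 of Myc and ribosome biogenesis, 43 ribosomal proteins, 11 mitochondrially encoded genes, 25 of lysosomes and 24 of cholesterol and fatty acid synthesis. Their medians lay between -0.08 and 0.18. Of 32 nuclear oxidative phosphorylation genes, Uqcrc1 of complex III was higher (0.53 ± 0.12, edgeR adjusted p = 0.0186, lost in 6 of 12 fits that left out a library). Among the mitochondrially encoded genes, mt-Nd5 (0.34 ± 0.10) was called without MLLT1 guide 1 replicate 1 (adjusted p = 0.012) and by the DESeq2 test. No gene of the super elongation complex was called among 11 tested (median -0.15), and none of the PAF1 complex and MLL partners among 13. NF-kB target genes had no call among 13 tested. Across the 41 lists, 26 held a call and 15 did not. Of 616 distinct tested list genes 47 were called, against 283 of all 10578 genes tested (2.68%). The lists were chosen with earlier results of these data known, so they are not a neutral sample of genes. A call that was missed does not show that a gene is equal in both groups.

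**Figure D4:**
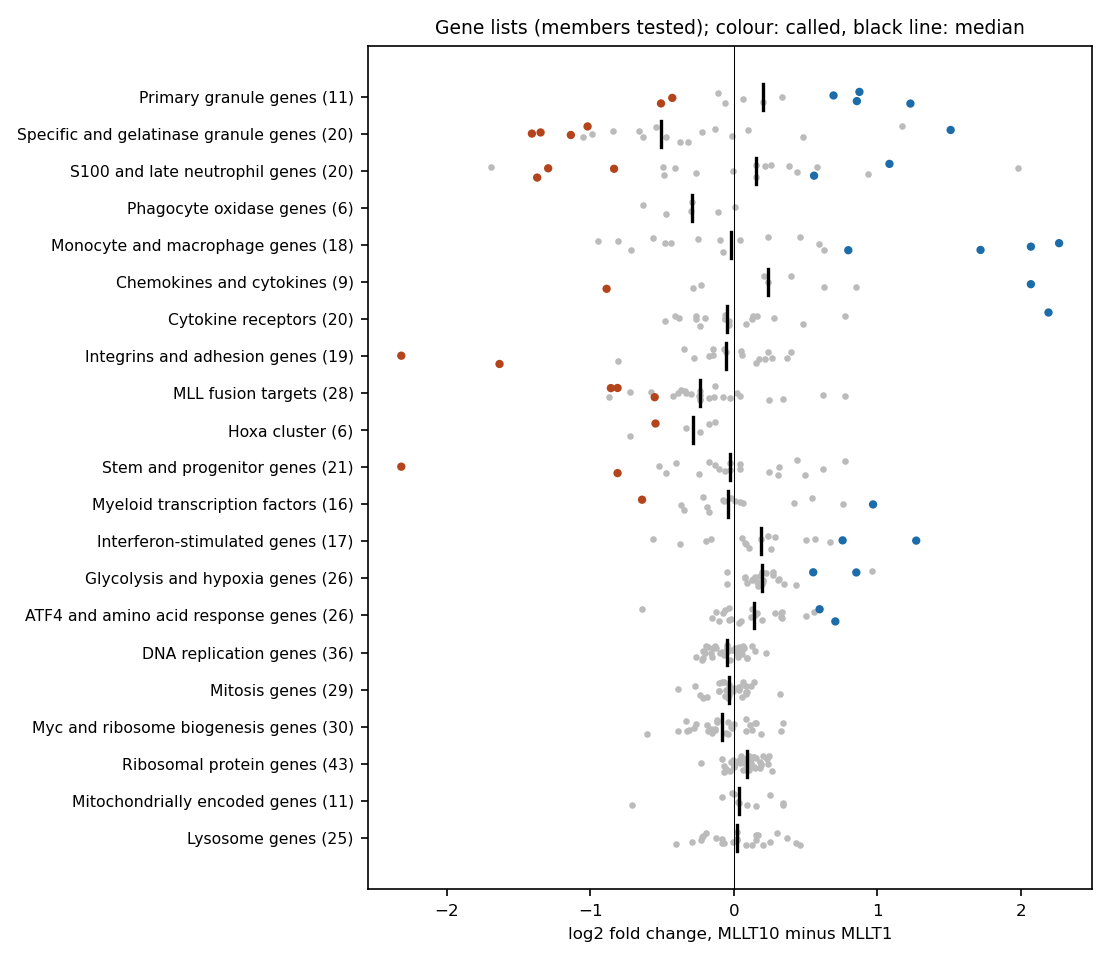
Log2 fold change, MLLT10 minus MLLT1-labelled libraries, of each tested member of 21 gene lists, with the number of members tested in brackets. Blue points were called higher, red points called lower, grey points not called, and the black line is the list's median. The primary granule list has 4 blue and 2 red points and the specific granule list 4 red and 1 blue, and the lists from DNA replication down to lysosome genes have none.

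Among markers of other blood lineages, some were absent and some present. The B cell markers Cd79a, Ms4a1 and Pax5, the T and NK cell markers Cd3e, Cd8a and Ncr1, and 4 of 6 mast cell and basophil markers (Cma1, Fcer1a, Prss34 and Tpsb2) were at 0 in all 12 libraries. The basophil protease Mcpt8 was present, at 22.7 to 48.8 CPM in the MLLT10 knockout, 34.2 to 68.9 CPM in the MLLT1-labelled libraries and 29.2 to 54.7 CPM in NT. Ms4a2, a chain of the IgE receptor, was at 3.76 to 10.1 CPM in the MLLT10 knockout and 2.71 to 13.6 CPM in the MLLT1-labelled libraries. The T cell kinase Lck was at 9.396 to 22.5 CPM in the MLLT10 knockout and 7.51 to 14.8 CPM in the MLLT1-labelled libraries, and the eosinophil lectin Siglecf at 8.06 to 12.8 CPM in the MLLT10 knockout and 7.36 to 12.4 CPM in the MLLT1-labelled libraries. None of these 4 was called. All 5 dendritic markers were under 1 CPM. Of 5 markers of the leukaemic progenitor (Kit, Cd34, Hoxa9, Meis1 and Myb), none was called. Their summed level ran from 1048 to 1194 CPM in the MLLT10 knockout, from 1137 to 1577 CPM in the MLLT1-labelled libraries and from 1260.5 to 1504 CPM in NT. Of 10 neutrophil markers, which include the primary and specific granule genes above, 3 were higher and 4 lower, and their sum ran from 3433 to 5132 CPM in the MLLT10 knockout, from 3308 to 4167 CPM in the MLLT1-labelled libraries and from 2096 to 2649 CPM in NT. Of 7 monocyte and macrophage markers, 2 were higher, and their sum ran from 155 to 219.7 CPM in the MLLT10 knockout and from 123 to 172 CPM in the MLLT1-labelled libraries, against 192 to 301 CPM in NT.

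Gp9, a platelet glycoprotein, was lower (-1.60 ± 0.33, edgeR adjusted p = 0.00622) beside Itga2b, with means of 1.77 ± 1.096 CPM in the MLLT10 knockout and 5.53 ± 1.76 CPM in the MLLT1-labelled libraries (SD, n = 6 each). Its call was lost in the fit of the 12 libraries alone (adjusted p = 0.0589). The megakaryocyte marker Pf4 leaned the other way (1.23) and was not called, and Gp1ba was under 1 CPM in all 12 libraries. Cpa3, a mast cell protease, was lower (-1.28 ± 0.35, edgeR adjusted p = 0.0467), and its call was lost in 10 of 12 fits that left out a library. Ighm, the immunoglobulin mu chain, was higher (0.88 ± 0.21, edgeR adjusted p = 0.0189) at 115 ± 24.7 CPM in the MLLT10 knockout and 62.4 ± 17.7 CPM in the MLLT1-labelled libraries, with these B cell markers at 0, and its call was lost in 4 of 12 fits that left out a library. The part of other cells in these differences was not tested.

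Each MLLT10 guide was set against each MLLT1 guide to see whether the difference held for every pair. MLLT10 guide 1 gave 41 higher and 31 lower genes against MLLT1 guide 1 (0.681% of genes tested) and 48 higher and 35 lower against MLLT1 guide 2 (0.785%). MLLT10 guide 2 gave 34 higher and 20 lower against MLLT1 guide 1 (0.51%) and 37 higher and 31 lower against MLLT1 guide 2 (0.643%). Blocked by replicate number, this last pair gave 48 higher and 50 lower. All 283 called genes had the same sign in all 4 pairs, as did 47.4% of all genes tested. The pairs share libraries with each other and with the comparison of 6 against 6, so this is not separate support. In all 4 pairs 29 genes were called, among them F13a1, Ccl9, Ifitm1, Elane, Mpo, Ngp, S100a9 and Lpxn, and 159 of the 283 were called in none. With 1 library left out, MLLT10 guide 1 gave as few as 31 calls against MLLT1 guide 1 (without MLLT10 guide 1 replicate 3) and 31 against MLLT1 guide 2 (without MLLT10 guide 1 replicate 2). MLLT10 guide 2 gave as few as 21 against MLLT1 guide 1 (without MLLT1 guide 1 replicate 2) and 20 against MLLT1 guide 2 (without MLLT1 guide 2 replicate 1).

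**Figure D5:**
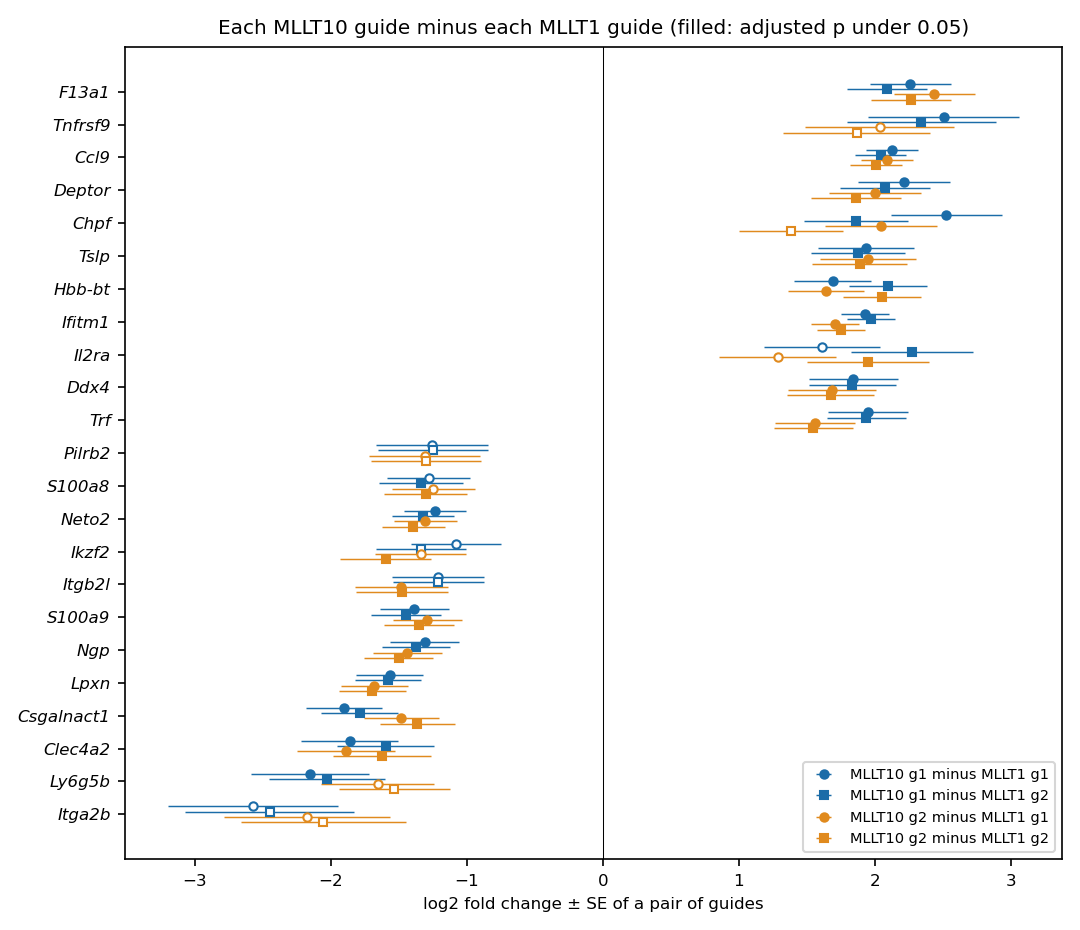
Log2 fold change ± SE of each MLLT10 guide minus each MLLT1 guide, for reported genes with the largest called differences in each direction, with filled symbols where the edgeR adjusted p was under 0.05. All 4 values of a gene lie on the same side of 0, and for Itga2b and Pilrb2 none of the 4 was called.

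Between the guides of the same target, edgeR called 0 genes for MLLT10 and 0 for MLLT1. At an unadjusted p under 0.05 stood 182 and 222 of the 10578 genes tested. With 3 libraries per guide, 0 calls does not show that the guides of a target act alike. The DESeq2 test also called 0 and 0, and without the filter on low counts 16 genes were called for MLLT10 and 21 for MLLT1. Without MLLT10 guide 2 replicate 1 or replicate 3, 1 gene was called between the MLLT10 guides. Elane differed between the MLLT10 guides by 0.28 ± 0.20, guide 1 minus guide 2, and Itga2b between the MLLT1 guides by 0.12 ± 0.56.

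Against NT, 50 genes were called in the MLLT10 knockout (0.473%) and 273 in the MLLT1-labelled libraries (2.58%). Both comparisons share the 3 NT libraries, so their values are set side by side without a count of overlap. For Elane the log2 fold change against NT was 0.73 (adjusted p = 0.0753) in the MLLT10 knockout and -0.50 (adjusted p = 0.145) in the MLLT1-labelled libraries. For Mpo it was 1.32 (adjusted p = 0.000173) in the MLLT10 knockout and 0.45 (adjusted p = 0.155) in the MLLT1-labelled libraries, and for Ctsg it was -0.14 (adjusted p = 0.822) in the MLLT10 knockout and -0.83 (adjusted p = 0.00187) in the MLLT1-labelled libraries. Against NT, Mpo was called higher in the MLLT10 knockout, Ctsg lower in the MLLT1-labelled libraries, and Elane in neither.

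Ngp, Camp and S100a9 had positive values against NT in both sets of libraries, and Ngp in the MLLT10 knockout was not called. Ngp had 0.76 (adjusted p = 0.196) in the MLLT10 knockout and 2.16 (adjusted p = 6.92e-06) in the MLLT1-labelled libraries. Camp had 1.24 (adjusted p = 0.011) in the MLLT10 knockout and 2.38 (adjusted p = 2.32e-06) in the MLLT1-labelled libraries, and S100a9 had 1.81 (adjusted p = 0.000465) in the MLLT10 knockout and 3.18 (adjusted p = 2.14e-07) in the MLLT1-labelled libraries. Ccl9 had 1.06 (adjusted p = 0.00178) in the MLLT10 knockout and -1.01 (adjusted p = 0.000696) in the MLLT1-labelled libraries, so it was called in opposite directions against NT. F13a1 did likewise, with 1.25 (adjusted p = 0.0226) in the MLLT10 knockout and -1.01 (adjusted p = 0.0315) in the MLLT1-labelled libraries. Ifitm1 had 0.30 (adjusted p = 0.52) in the MLLT10 knockout and -1.54 (adjusted p = 5.24e-07) in the MLLT1-labelled libraries, and Lpxn had -1.74 (adjusted p = 7.09e-05) in the MLLT10 knockout and -0.11 (adjusted p = 0.853) in the MLLT1-labelled libraries. All adjusted p-values here are those of edgeR's quasi-likelihood test.

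Some called genes were neighbours on a chromosome. Of 10515 pairs of adjacent tested genes, 19 had both members called (0.181%), 17 of them in the same direction. Among all genes tested 2.68% were called, and neither count of pairs was compared with a number expected from that share. Among the 17 were Prtn3 and Elane on chromosome 10, S100a8 and S100a9 on chromosome 3, Ifitm1 and Ifitm3 on chromosome 7, Mt2 and Mt1 on chromosome 8, and Cebpe and Slc7a8, an amino acid transporter (-1.01 ± 0.16), on chromosome 14. Pilrb1 and Pilrb2 are near-identical paralogs, as are Ifitm1 and Ifitm3 in part, and how reads shared by such copies were counted is not given. BC049730, next to Cd177, is named after its values were seen: it averaged 0.567 CPM in the MLLT10 knockout and 12.4 CPM in the MLLT1-labelled libraries, with the difference carried by 2 libraries at 36.3 and 34.1 CPM.

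Genes called lower in the MLLT10 knockout were longer than most. Their median genomic span was 37615 bases, against 22159.5 for genes called higher and 21575 for all genes tested. Spans over 100 kb made up 28.8% of the lower (36 genes), 17.1% of the higher (27 genes) and 10.8% of all genes tested. In single libraries, the median deviation of 975 long genes minus that of 2365 short genes (under 10 kb) ran from -0.14 to 0.06 in the MLLT10 knockout and from -0.14 to 0.15 in the MLLT1-labelled libraries, on the log2(CPM + 1) scale. These ranges overlap, and the part of gene length in the calls was not tested.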

How the data were processed

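RNA was sequenced in 24 libraries, for which the authors deposited raw counts of reads over 43629 Ensembl genes. Per the submitters' processing notes, bcl2fastq, HISAT2, HTSeq and DESeq2 were used with mm10. Tool versions, gene annotation and strand setting are not given in the sources. Columns were matched to samples by name. GENCODE M21 (GRCm38, the assembly that mm10 names) gave symbols for 42462 genes, and 1167 had none. Replicates differed by a chi-square of 6.918 to 34.31 per gene, above sampling noise, so each was counted.

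The counts were fitted with edgeR 4.0.16 in R 4.3.3 (TMM, filter by group, 10578 genes kept, all 8 groups sharing 1 spread). The contrast was the mean of both MLLT10 guides minus the mean of both MLLT1 guides. Pairs of guides, guides of 1 target and each target against NT came from the same fit, each adjusted over all genes. The SE is the log2 fold change's size divided by the root of F. The fit was also run on simulated counts, whose spread followed the fitted trend with level and held no effect of replicate number. That run does not bear on whether single calls here are right. The groups and the 41 gene lists (809 of 812 genes found) were chosen with earlier results of these data known, and lists are described by counts and medians. Named were the DOT1L complex, the 12 largest called rises and falls with a mean of at least 5 CPM and 1 sign in all pairs of guides, and per list up to 4 called members, or 2 with the smallest p where none was called. Clone names were skipped, and a few genes are not reported here. List members and neighbours named beyond this rule were chosen after their values were seen. Same-numbered libraries of MLLT10 guide 2 and MLLT1 guide 2 deviated together from their group means (r = 0.353, 0.1056 and 0.1458). In each of the other 3 pairs of groups a value was under 0.1, so the numbers were taken to pair only the first. By best match, MLLT10 guide 1 and MLLT1 guide 2 stood higher, with 6 of 6 libraries correlating best with their own number against 5 of 6. The reported test uses no pairing, and the replicate block was a separate fit of all 24 libraries. Alternatives were DESeq2 1.42.0 size factors, no filter, the DESeq2 test, a replicate block, the 12 libraries alone, leaving out each library, and leaving out MLLT1 guide 1 replicate 1 with MLLT6 guide 1 replicate 3, which stood apart in earlier results. Promoters came from RefSeq on GRCm38.p6. Tables and figures were made with Python 3.11.15, pandas 2.3.3 and matplotlib 3.10.9.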

Additional observations from a re-analysis of the deposited data

Results flagged for a closer look

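In 7 of 180 sets of 6 libraries examined, 1 library lay far from the other 5 by Dixon's test. Chance flags about 1 in 20 sets. Lck was at 22.5 CPM in MLLT10 guide 1 replicate 1 and between 9.40 and 14.1 CPM in the other MLLT10 libraries. The rest were MLLT1-labelled libraries. In guide 1 replicate 1, Hbb-bt was at 21.2 CPM (10.2 to 14.2 in the others) and Rpa1 at 282 CPM (224 to 234). In guide 1 replicate 2, H2-Ob was at 33.2 CPM (21.4 to 24.5) and Nfkb2 at 17.8 CPM (10.2 to 12.6). In guide 2 replicate 2, Jmjd1c was at 102 CPM (65.3 to 75.6). In guide 2 replicate 3, Clec4a2 was at 10.2 CPM (15.5 to 17.4). Of these genes, Hbb-bt, H2-Ob, Jmjd1c and Clec4a2 were called, and none of them lost its call when any single library was left out.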

How the results depend on the processing

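Of the 57 named genes that were called, 39 stayed called under each of the 18 alternatives, 18 lost the call in at least 1, and none changed sign. Another 6 named genes were called under some alternative but not as reported. Genes called lower in the MLLT10 knockout numbered 81 in the fit of the 12 libraries alone, 189 by the DESeq2 test, 142 without MLLT1 guide 1 replicate 1 and MLLT6 guide 1 replicate 3, and between 81 and 126 with a library left out, the fewest without MLLT10 guide 1 replicate 2 and 125 as reported. Genes called higher ranged from 115 to 236. DESeq2 size factors gave 157 higher and 126 lower, and 282 of the reported 283 calls. Without the filter 240 of the 283 remained called, in the 12 libraries alone 186, and without both libraries that stood apart 248.

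With the replicate number as a block, 198 genes were lower and 236 higher, and all 283 remained. MLLT10 guide 1 then gave 123 calls against MLLT1 guide 1 and 145 against MLLT1 guide 2, and MLLT10 guide 2 gave 99 against MLLT1 guide 1. Same-numbered libraries had correlations from -0.236 to 0.468, and 17 of 24 correlated best with their own number, a hint from the data and not the design. No named gene lost its call under the block, and Flt3, Rrp12, mt-Nd5, mt-Co1 and Hmgcs1 gained one.

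For MLLT10 guide 1 against MLLT1 guide 1 (72 calls), the 12 libraries alone gave 33, the DESeq2 test 132, no filter 152 and leaving out a library 31 to 76. For MLLT10 guide 1 against MLLT1 guide 2 (83), these were 37, 157, 200 and 31 to 96. For MLLT10 guide 2 against MLLT1 guide 1 (54), they were 24, 113, 123 and 21 to 54. For MLLT10 guide 2 against MLLT1 guide 2 (68), they were 30, 108, 156 and 20 to 74. Between the MLLT10 guides, no filter gave 16 and leaving out a library 0 to 1, and between the MLLT1 guides no filter gave 21. Fewer libraries enter the spread in the fits that leave libraries out, and the cause of the other shifts was not tested. Genes of a few CPM rest on few counts, so a difference there may not be detectable at this depth.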
